A study of Mus musculus with 3 samples.

Results

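Transporters that carry amino acids and transmitters across cell membranes were examined in sorted cells of the mouse olfactory epithelium. The genes were all those of the array whose platform symbol begins with Slc1a, Slc3a, Slc6a, Slc7a, Slc36a, Slc38a or Slc43a. This gave 63 genes of the 18193 on the array. Of these, 60 encode carriers or their partner chains and 3 lie on the opposite strand of one (Slc36a1os, Slc6a19os and Slc7a6os). Cells came from the olfactory epithelium of Tgn1-2G mice of both sexes, aged 5 to 8 days after birth, and were sorted by their green fluorescence. The transgene is understood to drive GFP from Neurog1 regulatory sequence, Neurog1 being a gene of neuronal progenitors, and cells of all 3 fractions carried it. There was 1 array each for 1000000 strongly fluorescent cells (GFP+++), 1300000 weakly fluorescent cells (GFP+) and 6800000 cells without fluorescence (GFP-). By the submitters' account, immature neurons were enriched in GFP+++ and depleted from GFP-, which kept every cell type, while mature neurons were slightly enriched in GFP+. The labels give the number 32 with each fraction, which is read as pooled mice. Since each fraction has 1 array, replicate error is unknown and nothing was tested, and every difference below describes these arrays only.

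Cells take up amino acids through carriers that use the sodium gradient, the proton gradient or exchange for another amino acid. The Slc1a and Slc6a families drive uptake with sodium and hold the plasma membrane carriers that clear glutamate, GABA, glycine and monoamines after release. Slc7a light chains reach the membrane only when bound to an Slc3a heavy chain, while the Slc7a cationic carriers act alone. Slc38a, Slc36a and Slc43a carriers move neutral amino acids, some of them at lysosomes, where amino acid supply is sensed. Olfactory sensory neurons themselves use glutamate as their transmitter, and a neuron in the growth phase needs amino acids for protein synthesis.

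Each gene is given as the signal intensity of its probe set with the highest mean, on the scale of the deposited arrays. Signals of different genes are not compared. A floor was set at the pooled median signal of 104, and folds were taken after lower signals had been raised to it, so that a fold with 1 array under the floor is a lower bound. A gene is said to pass 2-fold towards the array with the higher signal when the fold reaches 2. As the only available error, the pooled SD of log2 folds between probe sets of the same gene was 0.30 for GFP+++ against GFP-, 0.24 for GFP+ against GFP- and 0.30 for GFP+++ against GFP+. It covers probe choice and array noise but not animals or sorts.

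Neuronal markers were set beside the labels. The summed signal of 10 immature neuron markers was 94200.3 for GFP+++, 63282 for GFP+ and 75461 for GFP-, and 9 of the 10 peaked in GFP+++. GFP- was labelled as depleted of immature neurons, but 8 of these 10 markers were lowest in GFP+ and 2 in GFP-. For 10 mature neuron markers it was 57977, 86139 and 78699.9, and 8 of them peaked in GFP+. All 8 sustentacular, 7 Bowman gland, 5 horizontal basal, 7 fibroblast and 5 ensheathing glia markers measured had their highest signal in GFP-, as had 9 of 10 immune markers. The median signal over all probe sets was 88.2, 107 and 118 in this order. Scaling each array to the same median therefore moved the median log2 fold of all genes from 0.01 to 0.42 in GFP+++ against GFP-, from -0.01 to 0.13 in GFP+ against GFP- and from -0.02 to 0.25 in GFP+++ against GFP+.

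Part or all of each family gave signal above the floor. Of the 60 carriers, 33 lay above the floor on at least 1 array (55%, against 67.8% of all genes), 25 of them on all 3 arrays and 8 on only 1 or 2. All 33 passed in GFP-, 30 passed in GFP+ and 25 in GFP+++. The 8 partly measured carriers therefore had to be lower in GFP+++, and no count over the 33 is independent of that. By family, 4 of 7 Slc1a, 1 of 2 Slc3a, 7 of 20 Slc6a, 8 of 15 Slc7a, 4 of 4 Slc36a, 6 of 9 Slc38a and 3 of 3 Slc43a genes were measured. The carrier closest above the floor was Slc7a7 (119 in GFP-) and the one closest below it was Slc6a2 (101 in GFP-).

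**Figure D1:**
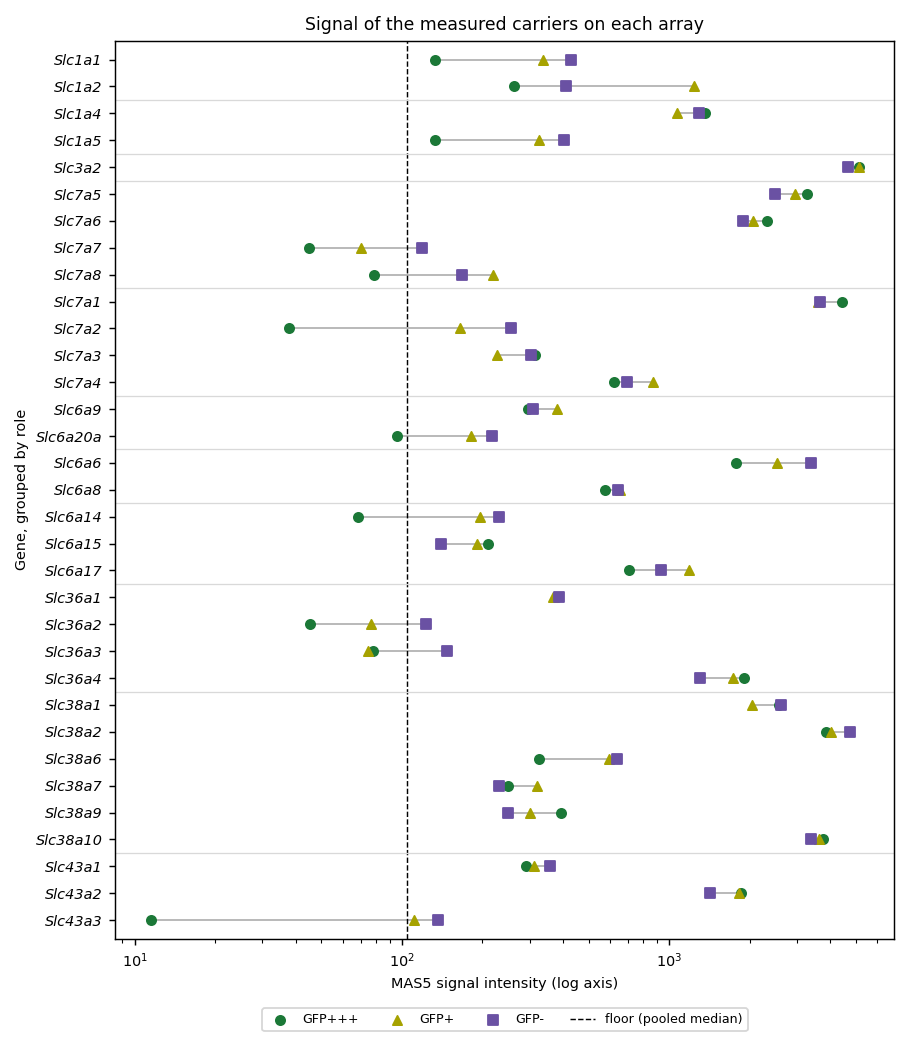
Signal intensity (log axis) of the 33 measured carriers, with 1 point per array for GFP+++, GFP+ and GFP-, genes grouped by role and the floor of 104 as a dashed line. Most genes have their 3 points close together, while Slc1a2 stands apart in GFP+ (1242) and the 8 partly measured carriers lie left of the floor in GFP+++.

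The carriers that remove transmitters other than glutamate were mostly not detected. The noradrenaline, dopamine and serotonin carriers Slc6a2, Slc6a3 and Slc6a4 were under the floor on all arrays. So were the GABA and betaine carriers Slc6a11, Slc6a12 and Slc6a13, the neuronal glycine carrier Slc6a5 and the proline carrier Slc6a7. Of the enzymes that make transmitters, Gad1, Th, Ddc, Dbh, Tph1, Tph2 and Chat were under the floor on every array. They serve GABA, catecholamine, serotonin and acetylcholine synthesis. Gad2, the second GABA synthesis enzyme, lay just above the floor (144 for GFP+++, 132 for GFP+ and 144 for GFP-). Hdc, of histamine synthesis, went the other way and was well above the floor on all arrays (1359, 1168 and 902). The other carriers under the floor were Slc1a3, Slc1a6, Slc1a7, Slc3a1, Slc6a16, Slc6a18, Slc6a19, Slc6a20b, Slc6a21, Slc7a9, Slc7a10, Slc7a11, Slc7a12, Slc7a13, Slc7a14, Slc7a15, Slc38a3, Slc38a4 and Slc38a5. A signal under the floor is not evidence of absence, since no detection calls were used.

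Between the GFP+++ and GFP- fractions, 0 of 33 carriers passed 2-fold towards GFP+++ and 5 towards GFP-, namely Slc1a1, Slc1a5, Slc6a14, Slc6a20a and Slc7a2. Over all 12235 genes compared, 1.92% passed towards GFP+++ and 12.4% towards GFP-, so the 15.2% of carriers towards GFP- is near the background. The median log2 fold was -0.17 for the carriers and 0.01 for all genes. Of the values behind these medians, 8 of 33 and 1705 of 12235 were bounds, with 1 array under the floor. With the arrays scaled to equal medians, 1 carrier passed towards GFP+++ and 3 towards GFP-, against 1129 and 1045 of all genes (235 and 1522 as deposited). The medians were then 0.18 for the carriers and 0.42 for all genes.

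In GFP+ against GFP-, 1 of 33 carriers passed 2-fold towards GFP+, Slc1a2, and 0 towards GFP-, beside 0.607% and 0.804% of 12196 genes. With median scaling these splits were 1 and 0 carriers beside 131 and 46 genes, where 74 and 98 genes had passed as deposited. The carrier median was -0.08 and that of all genes -0.01. In GFP+++ against GFP+, 0 of 30 carriers passed 2-fold towards GFP+++ and 4 towards GFP+ (Slc1a1, Slc1a2, Slc1a5 and Slc7a8), beside 0.985% and 9.34% of 11881 genes. With median scaling they were 0 and 4 carriers beside 416 and 767 genes, where 117 and 1110 had passed as deposited. The carrier median was -0.09 and that of all genes -0.02. These comparisons share arrays, so their values are not independent of each other.

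By family, the median log2 fold of GFP+++ against GFP- was -1.13 for the 4 Slc1a genes measured, -0.39 for 7 Slc6a, -0.30 for 3 Slc43a, -0.13 for 4 Slc36a, -0.06 for 8 Slc7a and 0.04 for 6 Slc38a genes, and Slc3a2 stood at 0.14. Carriers under the floor in GFP+++ had to be lower there. Such carriers were 2 of the Slc6a, 1 of the Slc43a, 2 of the Slc36a and 3 of the Slc7a genes. The medians of these families are not independent of that. In GFP+ the same held for 2 Slc36a genes and 1 Slc7a gene. In GFP+ against GFP- the family medians ran only from -0.29 (Slc1a) to 0.14 (Slc3a2). Slc1a thus held the lowest family median in both comparisons, with 4 genes that differ widely. The sign of the first comparison turned with median scaling or quantile normalization for Slc36a1, Slc38a1, Slc38a2, Slc43a1, Slc6a17, Slc6a8, Slc6a9 and Slc7a4, all of which lay within 1.5-fold.

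**Figure D2:**
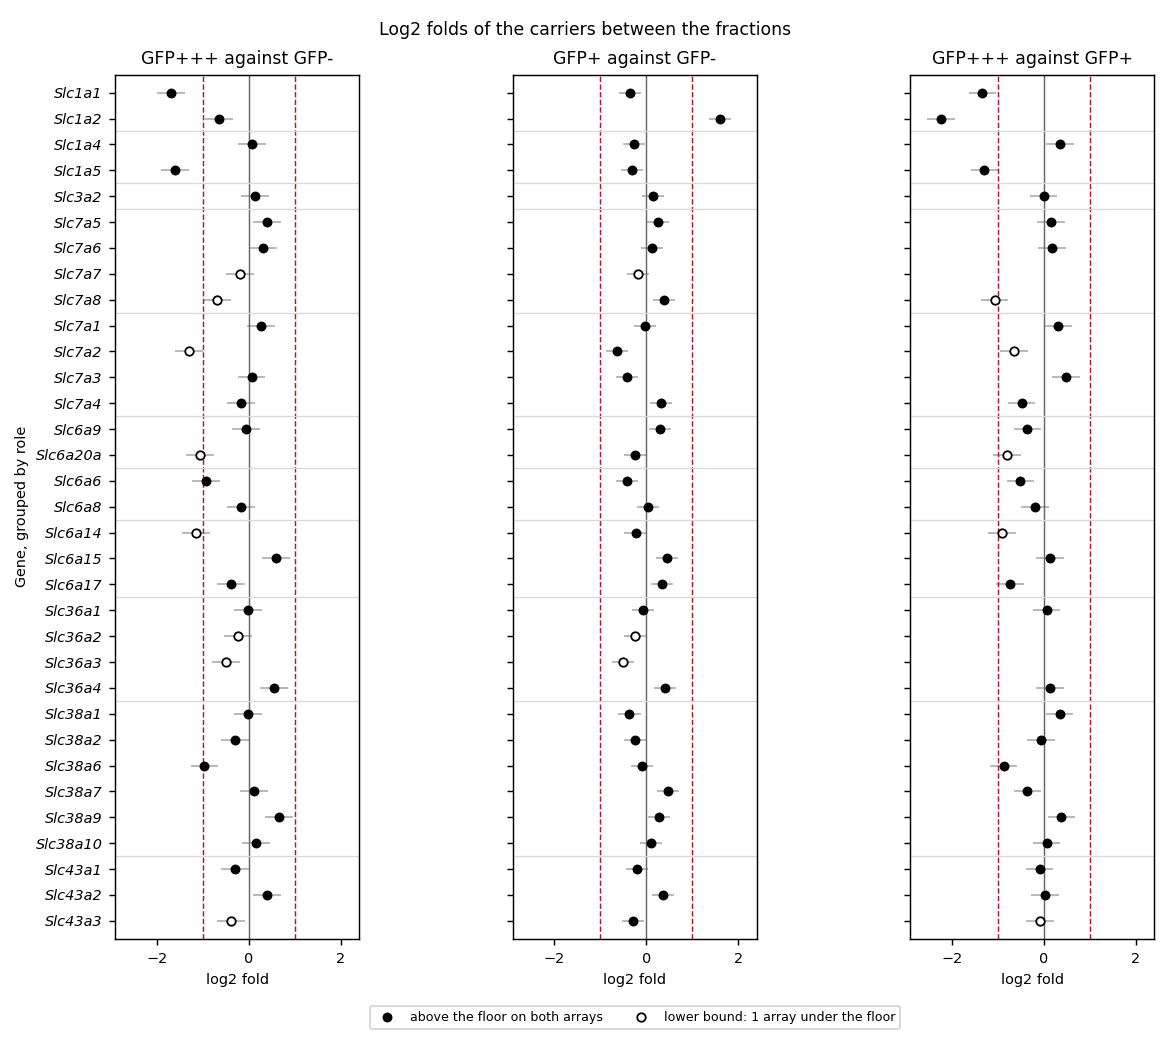
Log2 folds of the measured carriers in the 3 comparisons, after signals had been raised to the floor, with bars of 1 pooled SD between probe sets of a gene (0.30, 0.24 and 0.30), open points for lower bounds and dashed lines at 2-fold. The points past the lines are Slc1a1, Slc1a5, Slc6a14, Slc6a20a and Slc7a2 in GFP+++ against GFP-, Slc1a2 in GFP+ against GFP-, and Slc1a1, Slc1a2, Slc1a5 and Slc7a8 in GFP+++ against GFP+.

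The plasma membrane glutamate carriers Slc1a1 and Slc1a2 had their highest signal on different arrays. Slc1a2 (GLT-1), which in the brain clears most synaptic glutamate and is abundant in astrocytes, had signals of 263 for GFP+++, 1242 for GFP+ and 412 for GFP-. GFP+ thus stood 3.01-fold above GFP- (log2 fold 1.59) and 4.72-fold above GFP+++, the largest fold in either comparison among the carriers above the floor on all arrays. The GFP+++ array was 1.57-fold below GFP- (log2 fold -0.65). The direction of all 3 folds was the same with median scaling and with quantile normalization.

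The Slc1a2 result rests on 1 probe set. The other 4 gave at most 111 on any array. Of these, 1 read 69.4, 111 and 68.8 in GFP+++, GFP+ and GFP-, and another 24.1, 102 and 42.9, so that both were highest in GFP+, close to the floor. The remaining pair reached at most 19.8. Beside this, 8 of 10 mature neuron markers also peaked in GFP+, by less: their median log2 fold of GFP+ over GFP- was 0.35, with Omp (5041, 10615 and 7748) at 0.45 and the channel subunit Cnga4 (1749, 3951 and 2232) at 0.82. All 5 measured ensheathing glia markers were lower in GFP+ than in GFP-, with summed signals of 1795 for GFP+++, 6603 for GFP+ and 9966 for GFP-. Which cell type gave the Slc1a2 signal was not tested. In sorted bulk samples fewer cells of a type and less RNA per cell cannot be told apart.

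Slc1a1 (EAAC1), a neuronal and epithelial carrier of glutamate and cysteine, was highest in GFP-. Its signals were 133 for GFP+++, 337 for GFP+ and 429 for GFP-. GFP+++ was the low array, 3.21-fold below GFP- (log2 fold -1.68) and 2.53-fold below GFP+, while GFP+ lay within 1.27-fold of GFP-. A second probe set gave log2 folds of -0.92 and -1.16 for GFP+++ against GFP- and GFP+. For GFP+ against GFP- the other 2 probe sets gave 0.03 and 0.24, where the one used gave -0.35. The astrocyte carrier Slc1a3 (GLAST) was under the floor with its brightest probe set (9.65, 86.6 and 93.1). Another of its probe sets reached 110.0 in GFP- and 9.20 in GFP+++.

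The neutral amino acid exchangers of the same family parted from each other. Slc1a5 (ASCT2), a glutamine exchanger common in dividing cells, had signals of 132 for GFP+++, 325 for GFP+ and 403 for GFP-. GFP+++ was 3.04-fold below GFP- (log2 fold -1.60) and 2.45-fold below GFP+, the difference between GFP+ and GFP- being 1.24-fold. Slc1a4 (ASCT1), which carries serine and alanine and is found in neurons and glia, had 1362, 1067 and 1292, with a log2 fold of 0.08 for GFP+++ against GFP-. Its 2 other probe sets gave -0.03 and -0.24. The 7 measured cell cycle genes had summed signals of 8468, 15078 and 20384 in the same order, with all 7 lowest in GFP+++, as Slc1a5 was. The part of dividing cells in the Slc1a5 value was not tested.

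The remaining carriers past 2-fold in GFP+++ against GFP- were dim genes that fell under the floor in GFP+++. Slc7a2 (CAT2), an arginine carrier induced in macrophages and liver, read 38.0 for GFP+++, 164 for GFP+ and 256 for GFP-, a bound of at least 2.46-fold between GFP- and GFP+++. Of its 4 probe sets only this one passed the floor on any array, and with the median over probe sets Slc7a2 fell under the floor. Slc6a14, a broad carrier of neutral and cationic amino acids in secretory epithelia, gave 68.3, 196 and 231, at least 2.22-fold lower. With median scaling it lay within 2-fold (log2 fold -0.98). Its second probe set read 39.5, 189.7 and 227. Slc6a20a, a proline carrier of epithelia, gave 96.0, 182 and 217, at least 2.08-fold lower, and it lay within 2-fold with median scaling (log2 fold -0.76) and with quantile normalization (-0.82). On the GFP+ array these 3 genes were between 1.18-fold and 1.56-fold below GFP-.

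Slc7a8 (LAT2), a light chain for neutral amino acids, was highest in GFP+, with 78.9 for GFP+++, 219 for GFP+ and 167 for GFP-. GFP+++ was at least 2.10-fold below GFP+ and at least 1.60-fold below GFP-. Slc7a7, the light chain that exports cationic amino acids from epithelia and macrophages, was measured in GFP- alone (44.9, 70.1 and 119). Slc43a3, reported to carry purine bases rather than amino acids, gave 11.5, 111 and 136. The proton-coupled carriers Slc36a2 (45.5, 76.3 and 123) and Slc36a3 (77.9, 74.8 and 148) were also measured in GFP- alone.

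Markers of other cells differed along with these low carriers. Summed signals in GFP+++, GFP+ and GFP- were 8614, 28805 and 45464 for 7 Bowman gland markers, 48087, 63177 and 86044 for 8 sustentacular markers, and 780.4, 19184 and 22991 for 10 immune markers. They were 2374, 25256 and 41400.4 for 7 fibroblast markers and 303, 1232 and 2031 for 5 horizontal basal markers. No summed list was at 0, but 6 of the 10 immune markers (Ptprc, Cd68, C1qa, C1qb, S100a9 and Cd52) and 4 of the 5 basal markers were under the floor in GFP+++. For both lists 0 markers were under it in GFP+ or GFP-. Summed signals were 3902, 10164 and 15531 for 7 genes listed as endothelial, of which Tie1 was under the floor throughout. Most of each sum came from 1 of them, Rgs5 (3523, 9177 and 14137). Rgs5 is a gene of pericytes rather than of endothelium, so these sums do not describe endothelial cells. For 4 erythroid markers the sums were 109, 685 and 1054. The part of these cells in the carrier values was not tested.

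The taurine carrier Slc6a6 lay just within 2-fold. Its signals were 1778 for GFP+++, 2535 for GFP+ and 3394 for GFP-. GFP- was the high array, 1.91-fold above GFP+++ (log2 fold -0.93) and 1.34-fold above GFP+. A second probe set gave log2 folds of -1.08 and -0.23 for the same comparisons. The creatine carrier Slc6a8 gave 573, 656 and 641, within 1.14-fold across the arrays, while its second probe set (218, 362 and 273) had a log2 fold of -0.73 for GFP+++ against GFP+.

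Among the genes of taurine and creatine synthesis, 0 of 7 passed 2-fold towards GFP+++ and 2 towards GFP-, beside 1.92% and 12.4% of all genes. Cdo1, which commits cysteine to taurine, gave 507, 705 and 1089 (log2 fold -1.10). Gatm, the entry enzyme of creatine synthesis, gave 33.7, 167 and 263, at least 2.52-fold lower. Gamt, which completes creatine, gave 493, 263 and 277, with a log2 fold of 0.83, and Csad, the taurine enzyme after Cdo1, gave 631, 551 and 507. The brain creatine kinase Ckb (10433, 10467 and 11410.3) and its mitochondrial partner Ckmt1 (6297, 4321 and 4363) had log2 folds of -0.13 and 0.53. Ado, a second enzyme that leads from thiols to taurine, gave 3084, 3091 and 2649.9 and was lowest in GFP-.

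The other Slc6a carriers measured included ones known from neurons. Slc6a17 (NTT4), which loads neutral amino acids into synaptic vesicles, read 709.8 for GFP+++, 1183 for GFP+ and 932 for GFP-. GFP+ was highest and GFP+++ lowest, with log2 folds of 0.34 for GFP+ against GFP- and -0.74 for GFP+++ against GFP+. The fold of GFP+++ against GFP- was -0.39 and turned to 0.02 with median scaling. Slc6a15 (B0AT2), a neuronal carrier of branched-chain amino acids and proline, gave 209.5, 191 and 140.0, highest in GFP+++ (log2 fold 0.58). The glycine carrier Slc6a9 (GlyT1) gave 297, 380.4 and 308, and its 2 probe sets parted in GFP+ against GFP- (0.30 and -0.88).

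Genes that load transmitters into vesicles were read in the same fractions. Slc17a6, the vesicular glutamate carrier of olfactory neurons, read 3331 for GFP+++, 4959 for GFP+ and 3624 for GFP-, highest in GFP+ (log2 fold 0.45 against GFP-). Of the 7 loading genes on the array 4 were measured, and 0 of these passed 2-fold in either direction in any of the 3 comparisons. Of all genes, 1.92% passed towards GFP+++ and 12.4% towards GFP-. The shares were 0.607% and 0.804% in GFP+ against GFP-, and 0.985% and 9.34% in GFP+++ against GFP+. With 4 genes, a count of 0 is near these shares. In GFP+++ against GFP- 3 of the 4 folds were bounds. The monoamine loaders Slc18a2 (94.2, 199.6 and 177) and Slc18a1 (80.6, 113 and 142) and the nucleotide loader Slc17a9 (119, 89.1 and 88.3) lay near the floor. The GABA and glycine loader Slc32a1, the acetylcholine loader Slc18a3 and the second glutamate loader Slc17a7 were under it on all arrays.

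Of 19 genes of transmitter synthesis and breakdown on the array, 10 were measured, with 0 past 2-fold towards GFP+++ and 1 towards GFP- (1.92% and 12.4% of all genes). The latter was Gldc, of glycine breakdown, with 395 for GFP+++, 1059 for GFP+ and 958 for GFP- (log2 fold -1.28). Glul, which makes glutamine from glutamate, gave 4310.3, 3178 and 4402 and was lowest in GFP+. The aspartate aminotransferases Got1 (2211, 3178 and 2086) and Got2 (5460.4, 5246 and 5049.9) and the glutamate dehydrogenase Glud1 (1690.4, 2082 and 1640.1) supply or remove glutamate. Got1 had its highest signal in GFP+ (log2 fold 0.61 against GFP-), as did the mitochondrial aspartate and glutamate carriers Slc25a12 (1633, 2423 and 1515) and Slc25a22 (677, 906 and 607).

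The carriers above the floor on all arrays spread over them about as all such genes did. Of the 25 carriers above the floor on all arrays, 18 differed by less than 1.5-fold between their highest and lowest array (72%, against 66.4% of all such genes) and 3, Slc1a1, Slc1a2 and Slc1a5, by 2-fold or more (12%, against 12.8%). The median ratio of highest to lowest array was 1.32 for these carriers and 1.35 for all genes.

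The heavy chain Slc3a2 (4F2hc, CD98) read 5104 for GFP+++, 5123 for GFP+ and 4646 for GFP-, within 1.10-fold. Its light chain Slc7a5 (LAT1), which imports leucine and other large neutral amino acids, gave 3283, 2948 and 2489 and was highest in GFP+++ (log2 fold 0.40). The light chain Slc7a6 (y+LAT2), which exchanges arginine for glutamine, gave 2316, 2049 and 1880.5 (0.30). A second Slc7a6 probe set gave 0.0043. The arginine and lysine carrier Slc7a1 (CAT1), which needs no heavy chain, gave 4422, 3585 and 3662 (0.27), with 0.30 from its second probe set. The signals of these 4 genes differed by at most 1.32-fold across the arrays.

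Of the other cationic carriers above the floor on all arrays, Slc7a3 (CAT3), a neuronal arginine carrier, read 316 for GFP+++, 226 for GFP+ and 303 for GFP-, lowest in GFP+. Slc7a4, whose substrate is unsettled, gave 619, 867 and 697, highest in GFP+ (log2 fold 0.32 against GFP-, with 0.31 from its second probe set).

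Of the sodium-coupled neutral carriers, Slc38a1 (SNAT1), a glutamine carrier of neurons, gave 2578, 2034 and 2624, lowest in GFP+. Slc38a2 (SNAT2), which is induced when amino acids are short, gave 3845, 4013 and 4755. GFP- was highest with this probe set (log2 fold of GFP+++ against GFP- of -0.31), with median scaling the value was 0.11, and the other 2 probe sets gave -0.08 and 1.12. Slc38a10 gave 3769, 3616 and 3380.2, within 1.12-fold, with 4 probe sets between 0.16 and 0.31. Slc38a6 gave 326, 597 and 636, and GFP+++ was 1.95-fold below GFP- by this probe set (log2 fold -0.97), while the other gave -0.31.

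Slc38a9, the arginine sensor that signals lysosomal amino acids to the growth kinase mTORC1, read 393 for GFP+++, 302 for GFP+ and 249 for GFP-. With the probe sets used, this was the highest log2 fold of any carrier in GFP+++ against GFP- (0.66), and of its 5 other probe sets that could be compared 4 had the same sign, the range being -0.11 to 0.46. Slc36a4, a proline and tryptophan carrier, gave 1895, 1728 and 1303 (0.54). Slc36a1 (PAT1), the lysosomal proton-coupled carrier, gave 382, 367 and 387, and Slc38a7, a lysosomal glutamine carrier, 249, 319 and 231, highest in GFP+.

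Of the facilitative Slc43a carriers, Slc43a2 (LAT4), for branched-chain amino acids, read 1859 for GFP+++, 1828 for GFP+ and 1425 for GFP- (log2 fold 0.38). Its second probe set, with 540.3, 348 and 246, gave 1.14. Slc43a1 (LAT3), of like substrates, gave 291, 311 and 358 (-0.30, turning to 0.12 with median scaling). The opposite-strand gene Slc7a6os, which encodes a protein outside these families, gave 704, 628 and 504 (0.48), and the non-coding Slc36a1os and Slc6a19os were under the floor.

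Of 25 amino acid sensing genes around mTORC1, 1 passed 2-fold towards GFP+++ and 0 towards GFP- (1.92% and 12.4% of all genes). Their median log2 fold was 0.20, with 72% above 0, beside 0.01 and 50.7% for all genes. Lamtor1 (0.23), Lamtor5 (0.20) and Rraga (0.23), which hold the kinase at the lysosome, and its activator Rheb (0.11) differed little. The one past 2-fold was Sesn2, a leucine sensor that restrains the kinase, with 332 for GFP+++, 58.2 for GFP+ and 62.7 for GFP-, at least 3.18-fold higher in GFP+++. The arginine sensor Castor1 gave 79.0, 195 and 195, at least 1.87-fold lower.

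Among other amino acid and peptide carriers outside these families, 0 of 12 measured passed 2-fold towards GFP+++ and 3 towards GFP-, beside 1.92% and 12.4% of all genes. The peptide carrier Slc15a2 read 424 for GFP+++, 2125 for GFP+ and 2979 for GFP- (7.03-fold lower in GFP+++). Slc15a3, a peptide carrier of immune cells, gave 21.0, 141 and 222 (at least 2.12-fold), and Slc25a13, a mitochondrial aspartate carrier, 97.0, 200.3 and 266 (at least 2.55-fold). The mitochondrial ornithine carrier Slc25a15 (1022, 1386 and 1067) lay within 2-fold.

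**Figure D3:**
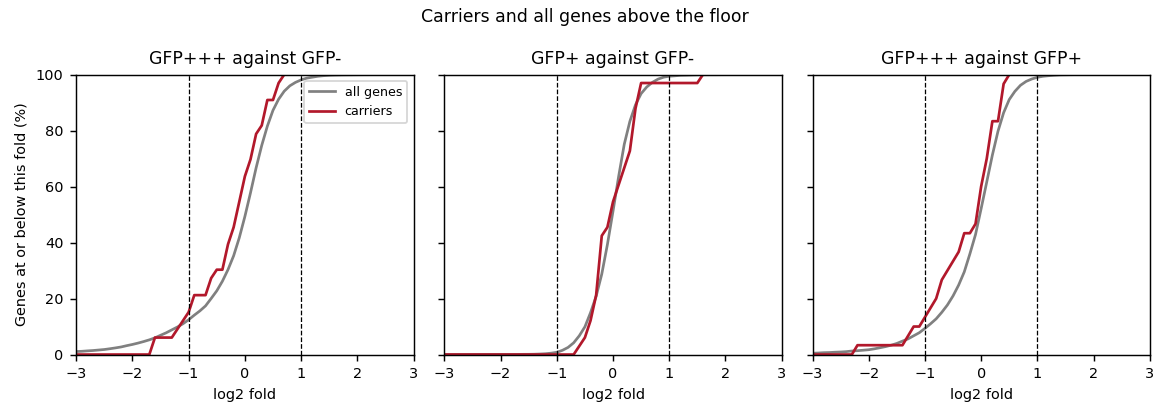
Cumulative share (%) of genes at or below each log2 fold in the 3 comparisons, for the measured carriers (red) and all genes counted (grey), with dashed lines at 2-fold. In GFP+++ against GFP- the carriers' curve lies left of that of all genes around 0 (medians -0.17 and 0.01) but does not reach the far low end, their lowest value being -1.68.

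Several carriers are known targets of ATF4, the transcription factor of the integrated stress response, which is made when amino acids are short and raises carriers and synthesis enzymes together. ATF4 binds, with a C/EBP partner, a composite element of the letters TGATGNAA. Both strands were searched for this motif in windows of 300 bases around RefSeq gene starts (GRCm38.p6), 250 before and 50 after. Of 32851 windows, 3.97% held it. Of the 60 carriers 43 had a window, 64 windows in all, of which 5 held the motif (7.81%). They belong to 4 genes: Slc1a4, Slc6a21, Slc7a7 and Slc7a11. Of the 9 ATF4-linked carriers only 6 had a window, 9 windows in all, of which 2 held the motif (Slc1a4 and Slc7a11). The ATF4-linked carriers without a window were not searched. Of 18 ATF4-linked genes that are not carriers, all had a window, 21 windows in all, of which 7 held the motif (33.3%). These belong to 7 genes: Aars, Asns, Atf3, Chac1, Nupr1, Trib3 and Vldlr. No other motif was searched.

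The stretches below are shown because they set the carrier with the doubled element, Slc7a11, beside another carrier and 4 stress genes whose signals differed between the fractions or did not. Each is read 5′ to 3′ on the gene's strand, and capitals mark the motif on either strand. They lie at chr3:50443629-50443703 (minus strand) for Slc7a11, chr14:54418054-54418109 (minus) for Slc7a7, chr2:119351025-119351080 (plus) for Chac1, chr19:27216796-27216851 (plus) for Vldlr, chr6:7693210-7693256 (minus) for Asns and chr7:126625549-126625604 (minus) for Nupr1.
Slc7a11: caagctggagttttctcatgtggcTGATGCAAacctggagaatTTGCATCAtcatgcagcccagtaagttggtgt
Slc7a7: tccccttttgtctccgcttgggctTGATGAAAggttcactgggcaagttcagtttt
Chac1: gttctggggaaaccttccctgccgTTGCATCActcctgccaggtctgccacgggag
Vldlr: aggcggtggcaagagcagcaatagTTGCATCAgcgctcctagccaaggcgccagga
Asns: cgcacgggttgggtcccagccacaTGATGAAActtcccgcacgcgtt
Nupr1: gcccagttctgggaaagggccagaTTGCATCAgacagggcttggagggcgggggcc

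Slc7a11 holds 1 copy on each strand, from 66 to 40 bases before the gene start, and the other stretches shown hold 1 copy each. A further Slc7a7 copy is not shown. It crosses the gene start of the window shown and lies from 243 to 236 bases before another gene start of Slc7a7. Slc7a11 (xCT), which imports cystine for glutathione, was under the floor on every array, with 36.9 for GFP+++, 42.7 for GFP+ and 71.7 for GFP-. Slc7a7 was above it in GFP- alone. Among the stress genes with the element, Chac1, which degrades glutathione, gave 797, 476 and 382 (2.09-fold higher in GFP+++ than in GFP-). Vldlr, a lipoprotein receptor, gave 2306, 1339 and 1204 (1.92-fold), and Asns, the asparagine synthetase, 1282, 1414 and 1189 (1.08-fold). Nupr1, a small stress-induced chromatin protein, gave 349, 749 and 943, 2.70-fold lower in GFP+++. Genes with these letters thus lay in both directions, and a match is a description, not a binding site.

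Of the 9 ATF4-linked carriers 8 were measured, with 0 past 2-fold towards GFP+++ and 1, Slc1a5, towards GFP-. Their median log2 fold was 0.07, and the 7 besides Slc1a5 lay between -0.31 (Slc38a2) and 0.40 (Slc7a5). Of the 18 ATF4-linked genes that are not carriers, 3 passed 2-fold towards GFP+++ and 4 towards GFP- (1.92% and 12.4% of all genes), and their median was 0.30 beside 0.01 for all genes. Those towards GFP+++ were Sesn2, Chac1 and the kinase inhibitor Trib3 (2953, 1561 and 1196). Atf4 itself gave 6410.4, 4533 and 4147 (0.63) and Ddit3, the stress factor CHOP, 3341, 2132 and 1752 (0.93).

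Those towards GFP- were enzymes of serine and glycine synthesis, and Nupr1. Phgdh, the first enzyme, read 490.4 for GFP+++, 1336 for GFP+ and 1859 for GFP- (3.79-fold lower in GFP+++). Psat1, the next, gave 597, 1036 and 1355 (2.27-fold lower), and Shmt2, the mitochondrial serine hydroxymethyltransferase, 198, 422 and 424 (2.14-fold lower). Mthfd2, which follows Shmt2 in mitochondria, gave 1287, 909.7 and 794 (log2 fold 0.70). The bright factors Atf5 (-0.01) and Cebpg (0.33) and the alanyl-tRNA synthetase Aars (0.28) stayed within 2-fold.

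**Figure D4:**
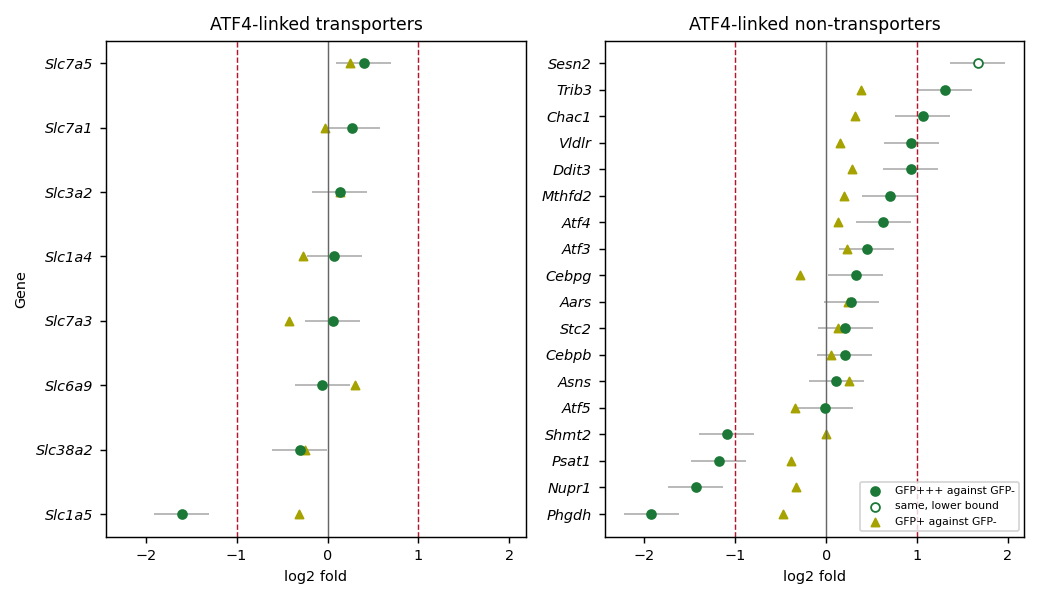
Log2 folds of GFP+++ against GFP- (circles, with bars of 1 pooled SD of 0.30 between probe sets, open where a lower bound) and of GFP+ against GFP- (triangles) for 8 ATF4-linked carriers (left) and 18 other ATF4-linked genes (right), with dashed lines at 2-fold. The carriers lie between -0.31 and 0.40 except Slc1a5 at -1.60, whereas the other genes run from -1.92 (Phgdh) to 1.67 (Sesn2).

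Glutathione synthesis draws on the cystine, glutamate and glycine that these carriers bring in. Of 11 genes of glutathione synthesis and breakdown measured, 1 passed 2-fold towards GFP+++ and 1 towards GFP-, beside 1.92% and 12.4% of all genes. The first was Chac1, which degrades glutathione. The other was the gamma-glutamyl transferase relative Ggt7 (667 for GFP+++, 1334 for GFP+ and 1632 for GFP-). The rate-limiting ligase subunits Gclc (2226, 1801 and 1729) and Gclm (1740.3, 1895 and 1723) and the peroxidase Gpx4 (7295, 6583 and 7147) lay within 1.29-fold. Cth, which makes cysteine from methionine and so bypasses cystine import, gave 1074, 734 and 642 (log2 fold 0.74). Cbs, the enzyme before it, was under the floor on every array.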

How the data were processed

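RNA of 3 sorted fractions was measured on 1 Affymetrix array each. The authors deposited linear signal intensity for each probe set. Per the submitters' processing notes, MAS5 produced them. The MAS5 version and settings and any genome build: not given in the sources used here. On each array the mean after trimming 2% was 500.002, so each array carries 1 global scaling factor, which leaves differences in shape between arrays. Of 45101 probe sets, 34958 had 1 platform symbol, 932 several (1 of them with a member's symbol, left out) and 9211 none. All 63 member symbols matched the RefSeq table of GRCm38.p6 by Entrez identifier. Per gene the probe set with the highest mean was used, with a floor at the pooled median and a log2 fold between arrays. The members and the 19 gene lists were chosen with earlier results of these data known. Carriers past 2-fold, the 10 with the highest mean signal and the ATF4-linked ones were named by rule (20 in all), with up to 4 bright members and those past 2-fold for other lists. Other genes named were chosen after their values were seen. Work was done in Python 3.11.15 with pandas 2.3.3, and the steps were tested on simulated data. Alternatives were the median over probe sets, no probe sets ending in x, s or a, median scaling, quantile normalization, floors at the 35th and 65th percentile, and 1.5-fold. The number of arrays limits the precision.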

Additional observations from a re-analysis of the deposited data

How the results depend on the processing

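The counts of carriers past 2-fold were small and moved with the floor. In GFP+++ against GFP- the 5 lower carriers became 3 with median scaling, 0 with the 65th percentile floor (276), 10 with the 35th percentile floor (42.0) and 9 at 1.5-fold. The 0 higher ones became 1 with the median over probe sets (Slc43a2), with median scaling (Slc38a9) and at 1.5-fold. In GFP+ against GFP- the 1 higher carrier became 0 with the median over probe sets, where Slc1a2 lay under the floor, and the 0 lower ones became 1 at 1.5-fold. In GFP+++ against GFP+ the 4 lower carriers became 2 with the median over probe sets, 1 with the 65th percentile floor, 8 with the 35th percentile floor and 9 at 1.5-fold. Slc1a2 kept its 2-fold difference, in both comparisons that called it, under all 5 alternatives that gave it a value, each with the same 1 probe set. Of 339 values of named carriers under an alternative, 298 moved by less than the SD between probe sets and 0 of the called ones changed sign. Many of these values could not move, since another floor leaves the folds of bright genes as they were and cannot reverse a sign. Values that fell under the floor were not counted. With median scaling 16 values moved by more than the SD and 44 did not. All 16 were among the 20 named carriers in GFP+++ against GFP-. There the scaling moved the median of all genes from 0.01 to 0.42, beside an SD of 0.30. Since it shifts genes above the floor on both arrays by the same amount, which values moved was largely fixed by the scaling. Dim carriers carry the least certain folds, and no replicate array allows one to be left out. No paired analysis was possible because each group holds 1 array.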
